A study of Homo sapiens with 8 samples.

Results

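The cytosolic heat shock genes described here are the chaperones HSPA1A, HSPA1B, HSPA8, HSPH1, HSP90AA1, HSP90AB1, DNAJB1 and HSPB1, the co-chaperone BAG3 and the transcription factor HSF1. They were chosen by symbol, with earlier results of these data known, and are 10 of the 58735 genes in the deposited table. Transcripts were measured by RNA sequencing in PC3, a human prostate cancer cell line. The 4 libraries titled siCtrl have the genotype WT, and the 4 titled siPRMT7 have the genotype PRMT7 knockdown, where PRMT7 is a protein arginine methyltransferase. Cells of both groups grew in RPMI-1640 with fetal bovine serum and were transfected with synthetic RNA or its negative control by lipofection. The library names carry the prefix sh where the titles have si. Nothing in the labels states that replicates were separate cultures, so p-values cover only the spread between these samples, which may be technical.

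Heat shock proteins are chaperones that bind unfolded proteins and help them fold, stay soluble or reach degradation. HSP70 proteins work in cycles driven by ATP with J-domain partners and nucleotide exchange factors, and pass part of their clients on to HSP90. HSF1 is held inactive by these chaperones in unstressed cells, and under proteotoxic stress it forms trimers that bind heat shock elements, inverted repeats of GAA, in the promoters of chaperone genes. PRMT7 is known to methylate an arginine in proteins of the HSP70 family, a protein modification that RNA sequencing does not read. The comparison here asks whether the transcripts of the heat shock genes differ when PRMT7 is targeted.

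The RefSeq promoters (GRCh38.p14) were searched for the letters of heat shock elements, and the 250 bases before the start are given for 6 genes that hold a match. Capitals mark matches to GAANNTTC or TTCNNGAA, in which N is any base. Each of these motifs reads the same on both strands, and matches to both overlap in a 3-unit element, which is GAANNTTC followed by NNGAA or TTCNNGAA followed by NNTTC. The sequences run 5′ to 3′ on the gene's own strand, at chr6:31815293-31815542 (plus) for HSPA1A, chr11:123062137-123062386 (minus) for HSPA8, chr14:102087045-102087294 (minus) for HSP90AA1, chr6:44247693-44247942 (plus) for HSP90AB1, chr19:14518398-14518647 (minus) for DNAJB1 and chr7:76302423-76302672 (plus) for HSPB1.
HSPA1A: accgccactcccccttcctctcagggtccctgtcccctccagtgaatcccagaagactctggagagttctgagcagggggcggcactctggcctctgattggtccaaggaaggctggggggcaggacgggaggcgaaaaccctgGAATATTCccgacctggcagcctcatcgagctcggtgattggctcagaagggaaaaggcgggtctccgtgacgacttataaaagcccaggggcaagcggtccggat
HSPA8: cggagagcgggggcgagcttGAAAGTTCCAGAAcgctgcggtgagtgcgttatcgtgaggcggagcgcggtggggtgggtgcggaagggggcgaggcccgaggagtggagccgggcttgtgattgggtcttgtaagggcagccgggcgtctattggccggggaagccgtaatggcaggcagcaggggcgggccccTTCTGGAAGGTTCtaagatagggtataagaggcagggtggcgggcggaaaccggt
HSP90AA1, the second start: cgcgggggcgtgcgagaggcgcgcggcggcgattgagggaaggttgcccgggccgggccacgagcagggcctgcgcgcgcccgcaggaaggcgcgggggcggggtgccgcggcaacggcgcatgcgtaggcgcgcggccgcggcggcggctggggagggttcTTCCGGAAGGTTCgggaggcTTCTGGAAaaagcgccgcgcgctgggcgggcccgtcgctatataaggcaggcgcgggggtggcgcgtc
HSP90AB1, the third start: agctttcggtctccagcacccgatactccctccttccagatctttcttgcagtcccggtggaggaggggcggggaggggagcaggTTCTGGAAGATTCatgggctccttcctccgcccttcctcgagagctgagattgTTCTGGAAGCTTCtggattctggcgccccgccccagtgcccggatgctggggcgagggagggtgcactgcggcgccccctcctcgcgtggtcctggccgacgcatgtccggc
DNAJB1, the second start: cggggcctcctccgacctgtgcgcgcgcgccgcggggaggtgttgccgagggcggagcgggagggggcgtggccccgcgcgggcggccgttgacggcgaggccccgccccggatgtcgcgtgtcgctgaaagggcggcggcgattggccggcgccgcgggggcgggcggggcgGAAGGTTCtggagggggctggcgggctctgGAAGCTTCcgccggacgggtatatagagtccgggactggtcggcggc
HSPB1: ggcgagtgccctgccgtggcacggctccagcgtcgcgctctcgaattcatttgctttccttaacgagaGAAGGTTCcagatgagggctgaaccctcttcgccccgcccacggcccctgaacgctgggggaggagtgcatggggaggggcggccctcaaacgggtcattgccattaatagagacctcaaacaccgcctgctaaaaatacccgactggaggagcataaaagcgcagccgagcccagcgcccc
Of the 10 genes 9 matched the promoter table, with 14 windows in all because HSP90AA1 has 2 starts and DNAJB1 and HSP90AB1 have 3 each. An element of 8 bases lay in 7 of the 14 windows, which belong to 7 genes, against 11.6% of the 35116 windows of this length in the table. The 3-unit element was found at HSPA8, HSP90AA1 and HSP90AB1, against 0.441% of all windows. HSPA8 and HSP90AB1 each held 2 such elements. HSPA1B held the element of HSPA1A at nearly the same distance, positions -105 to -98 against -106 to -99, and 235 bases of the 2 windows were identical when aligned, with 14 mismatches. HSPA1A and HSPA1B were also the members with TATAAA (either strand), at -30 to -25 and -29 to -24, a motif in 10.7% of all windows. The windows of HSPH1 and BAG3 held no match to these letters. A match is a description of the sequence and does not show binding.

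Libraries held 14526030 to 15724862 fragments, rebuilt from the deposited values. The library siPRMT7 replicate 2 stood apart, at 28.4 on the first principal component (31.4% of the variance) against -11.9 to 7.36 for the others. In it ribosomal protein genes took 3.94% of fragments, against 2.96 to 3.45% in the other 7. The epithelial markers KRT8, KRT18 and EPCAM were present, with a summed level of 112 to 121 FPKM in the siCtrl group and 115 to 137 FPKM in the siPRMT7 group. KLK3 and KLK2 had 0 fragments in every library. Leukocyte markers summed to at most 0.513 FPKM, and CD3E was at 0. Of the fibroblast and endothelial markers COL1A1 (6.13 to 7.53 FPKM) and PECAM1 (2.83 to 3.64 FPKM) were detected, while DCN, CDH5 and VWF stayed under 0.1 FPKM, and the summed levels of both lists overlapped between the groups.

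PRMT7 (ENSG00000132600, chromosome 16, 68310974 to 68358563, plus strand) was 5.24, 4.86, 5.104 and 5.25 FPKM in siCtrl replicates 1 to 4 and 4.62, 4.31, 5.01 and 4.82 FPKM in siPRMT7 replicates 1 to 4. FPKM is fragments per kilobase of gene length, scaled to a library size that was set here by median ratios between libraries. The means differed by -8.29%, a difference that did not pass an exact two-sided permutation test (p = 0.0571, where the smallest possible is 0.0286). On the TPM scale it was -10.7%, with all 4 siPRMT7 libraries below all siCtrl libraries (exact permutation p = 0.0286). In bulk RNA a lower level in each cell and fewer cells with the transcript cannot be told apart. The transcript of the targeted gene was thus close to its control level, and differences are given below as between libraries labelled siPRMT7 and siCtrl.

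The heat shock genes were expressed at high levels in both groups and differed little between them. All 10 were tested, and 0 passed limma's adjusted p of 0.05, against 0.0149% of the 13436 genes tested (2 genes). Members passing also numbered 0 with limma's voom on rebuilt fragments and with library weights, where 0.0968% and 0.432% of genes passed. The same held with the length and GC trend removed (0.0595% of genes) and among protein-coding genes alone (0.101%). At an unadjusted p under 0.05 there were 2 members, HSPA1A and HSPB1, both higher, against 13.2% of all genes (7.67% higher and 5.49% lower). The log2 fold changes ran from -0.09 to 0.19, with a median of -0.02 beside 0.00 over all genes tested, to 2 decimals. Every 95% interval of the 10 lay between -0.22 and 0.37, which is 0.861-fold to 1.29-fold on the log2(FPKM + 1) scale, before any correction for the number of genes.

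**Figure D1:**
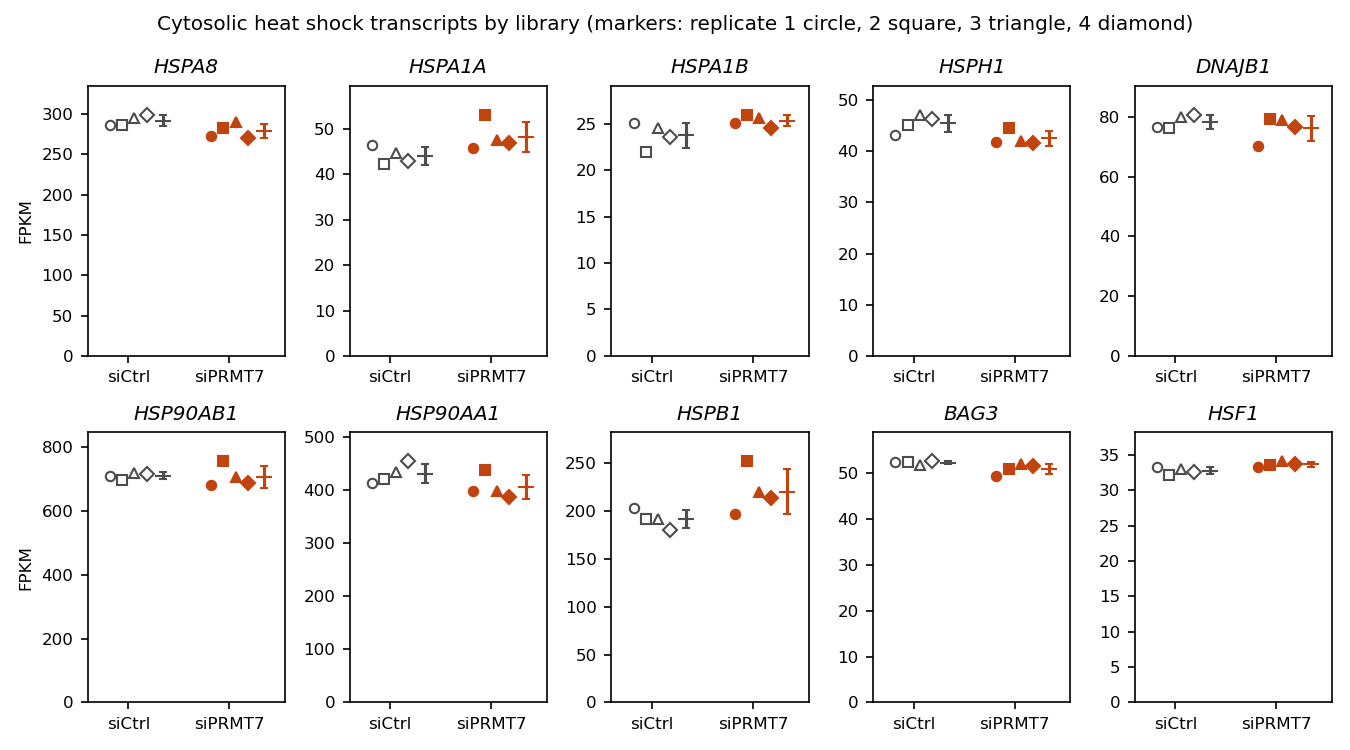
FPKM of each heat shock gene in the 8 libraries, with siCtrl in open grey and siPRMT7 in filled orange markers. The marker shape gives the replicate number, and the bar beside each group is the mean with its SD (n = 4). Within each gene the libraries lie close together, and siPRMT7 replicate 2 is the highest library for HSPB1, HSPA1A, HSPA1B and HSP90AB1.

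By level per length, the order from high to low was HSP90AB1, HSP90AA1, HSPA8, HSPB1, DNAJB1, BAG3, HSPA1A, HSPH1, HSF1 and HSPA1B. HSP90AB1 ranked 24th in mean FPKM among the 10934 protein-coding genes tested, HSP90AA1 46th and HSPA8 69th, while HSPA1B ranked 1863rd. Neighbours in this order did not overlap over the 8 libraries, with 2 exceptions. The levels of BAG3 overlapped those of HSPA1A, and those of HSPA1A overlapped those of HSPH1. The spread within a group was small, with coefficients of variation from 0.547% (BAG3 in siCtrl) to 10.5% (HSPB1 in siPRMT7). Counting error was at most 3.41%, for HSPA1B with 861 fragments, and at least 0.532%, for HSP90AA1 with 35376.

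HSPA8 (ENSG00000109971, chromosome 11, 123057489 to 123063230, minus strand), also called HSC70, is the constitutive cytosolic HSP70 that folds nascent chains and uncoats clathrin vesicles. It had 287, 286, 296 and 299 FPKM in siCtrl replicates 1 to 4 and 273, 283, 290.04 and 271 FPKM in siPRMT7 replicates 1 to 4. The libraries siPRMT7 1, 2 and 4 were below every siCtrl library, and replicate 3 lay among them. The log2 fold change was -0.06 (95% interval -0.16 to 0.03, limma adjusted p = 0.525). HSPA8 hosts small nucleolar RNAs in its introns, and the table lists 2 of them, SNORD14C and SNORD14D, with 0 fragments in every library on 175 exonic bases they share with HSPA8.

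HSPA1A (ENSG00000204389, chromosome 6, 31815464 to 31817946, plus strand) and HSPA1B (ENSG00000204388, chromosome 6, 31827735 to 31830255, plus strand) are the stress-inducible HSP70 genes, neighbours in the major histocompatibility complex that encode the same chaperone. HSPA1A had 46.4, 42.2, 44.6 and 42.9 FPKM in the siCtrl group and 45.7, 53.1, 47.5 and 46.8 FPKM in the siPRMT7 group. In 3 of the 4 siPRMT7 libraries it was above every siCtrl library, and the log2 fold change was 0.13 (0.0034 to 0.25, limma adjusted p = 0.370), or 0.083 without siPRMT7 replicate 2 (adjusted p = 0.428). HSPA1B had 25.1, 22.001, 24.5 and 23.5 FPKM in the siCtrl group and 25.1, 25.96, 25.6 and 24.6 FPKM in the siPRMT7 group. The groups overlapped, and the log2 fold change was 0.088 (-0.02 to 0.20, limma adjusted p = 0.449), or 0.053 without siCtrl replicate 2.

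These 2 genes cannot be separated well by sequence. Of all windows of 100 bases in their transcripts, 67.3% of those of HSPA1A and 68.8% of those of HSPA1B occur in the other gene. The sources used here do not say how fragments that fit both were counted, so their levels and their division are uncertain. Summed, the pair had 67.8 ± 3.16 FPKM in the siCtrl group and 73.6 ± 3.75 FPKM in the siPRMT7 group (SD, n = 4 each), a mean 8.52% higher, and 5.84% higher without siPRMT7 replicate 2. HSPA1B also shares 920 exonic bases with the transcript AL671762.1 on its own strand, which had at most 3 fragments. The sources used here do not say how fragments on those bases were counted either. The level of HSPA1B, its rank and its ratio to HSPA1A are thus uncertain for this reason too.

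HSPH1 (ENSG00000120694, chromosome 13, 31134974 to 31162388, minus strand) encodes HSP110, a nucleotide exchange factor of HSP70 that takes part in untangling aggregates. It had 43.2, 45.1, 47.1 and 46.4 FPKM in the siCtrl group and 41.8, 44.6, 42.1 and 41.5 FPKM in the siPRMT7 group. All siPRMT7 libraries but replicate 2 were below every siCtrl library, and the log2 fold change was -0.09 (-0.19 to 0.0031, limma adjusted p = 0.387). DNAJB1 (ENSG00000132002, chromosome 19, 14514770 to 14529770, minus strand) encodes HSP40, the J-domain protein that delivers clients to HSP70 and stimulates its ATPase. It had 76.6, 76.1, 79.9 and 80.6 FPKM in the siCtrl group and 70.2, 79.2, 78.8 and 76.5 FPKM in the siPRMT7 group. Only siPRMT7 replicate 1 lay below the siCtrl range, and the log2 fold change was -0.04 (-0.15 to 0.07, limma adjusted p = 0.713), or -0.0027 without that library. BAG3 (ENSG00000151929, chromosome 10, 119651370 to 119677819, plus strand) is an exchange factor that directs HSP70 clients to autophagy. Its values were 52.3, 52.4, 51.9 and 52.5 FPKM in the siCtrl group and 49.3, 50.8, 51.9 and 51.5 FPKM in the siPRMT7 group. The siCtrl libraries lay within 1 FPKM of each other, 3 siPRMT7 libraries were below them, and the log2 fold change was -0.038 (-0.12 to 0.04, limma adjusted p = 0.626), or -0.023 without siPRMT7 replicate 1.

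HSP90AB1 (ENSG00000096384, chromosome 6, 44246166 to 44253888, plus strand) encodes the constitutive HSP90 beta, which stabilizes kinases and other signalling proteins. It had 708, 696, 719 and 715 FPKM in the siCtrl group and 679.8, 754, 704 and 686 FPKM in the siPRMT7 group, so that siPRMT7 held both the highest and the lowest library. The log2 fold change was -0.0085 (-0.13 to 0.11, limma adjusted p = 0.9505), and its sign turned without siPRMT7 replicate 1 (0.0092) or replicate 4 (0.0051). HSP90AA1 (ENSG00000080824, chromosome 14, 102080738 to 102139699, minus strand) encodes the more inducible HSP90 alpha. It had 414, 422, 435 and 455 FPKM in the siCtrl group and 399, 438, 398 and 387 FPKM in the siPRMT7 group. Again all siPRMT7 libraries but replicate 2 were below the siCtrl range, and the log2 fold change was -0.09 (-0.22 to 0.04, limma adjusted p = 0.499).

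HSPB1 (ENSG00000106211, chromosome 7, 76302544 to 76304295, plus strand) encodes HSP27, a small heat shock protein that holds unfolded proteins in oligomers and acts on the actin skeleton. It had 203, 192, 192 and 179.8 FPKM in the siCtrl group and 196, 252, 219.6 and 213 FPKM in the siPRMT7 group. It had 3 siPRMT7 libraries above every siCtrl library and a mean 14.8% higher. The log2 fold change was 0.19 (0.02 to 0.37, limma adjusted p = 0.334). Without siPRMT7 replicate 2, its highest library, the log2 fold change was 0.13 (limma adjusted p = 0.375), and with quantile normalization it was 0.084.

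HSF1 (ENSG00000185122, chromosome 8, 144291591 to 144314722, plus strand), the regulator of the other genes, had 33.4, 32.2, 33.02 and 32.7 FPKM in the siCtrl group and 33.3, 33.5, 34.1 and 33.8 FPKM in the siPRMT7 group. All 8 libraries lay within 32.2 to 34.1 FPKM. The log2 fold change was 0.04 (-0.04 to 0.11, limma adjusted p = 0.626), and it was -0.0032 on the TPM scale, -0.0097 with quantile normalization and -0.02 with the trend on length and GC content removed. HSF1 activity is set mainly by trimer formation and phosphorylation of the protein, which these data do not measure. Exonic bases shared with genes on the opposite strand numbered 139 for HSF1 (DGAT1), 228 for DNAJB1 (TECR and MIR639 together) and 197 for HSP90AA1 (WDR20), and the sources used here do not say if counting was stranded.

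**Figure D2:**
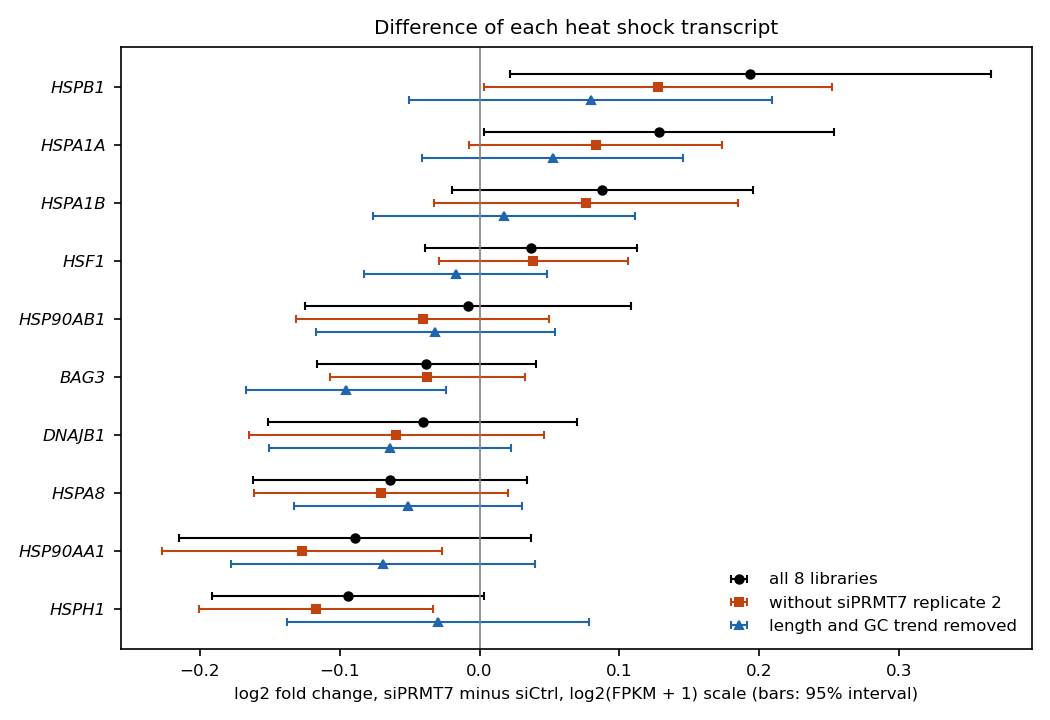
Log2 fold change of each heat shock gene, siPRMT7 minus siCtrl on the log2(FPKM + 1) scale, with 95% limma intervals. Black circles are all 8 libraries, orange squares leave out siPRMT7 replicate 2 and blue triangles take the dependence on gene length and GC content out of each library. HSPB1 and HSPA1A are at 0.19 and 0.13 in the first and at 0.08 and 0.05 in the last, and HSF1 changes sign in the last.

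The siPRMT7 libraries were often, but never all, beyond the siCtrl range. In 8 of the 10 genes 3 siPRMT7 libraries lay beyond every siCtrl library, above for HSPA1A, HSPA1B, HSPB1 and HSF1 and below for HSPA8, HSPH1, HSP90AA1 and BAG3. For 29.7% of all genes tested 3 or 4 siPRMT7 libraries lay beyond every siCtrl library, 15.2% above and 14.5% below. That share includes the genes whose groups did not overlap, so it is wider than a share for 3 libraries alone. The groups did not overlap in 0 of the 10 genes, against 8.57% of all genes. Without siPRMT7 replicate 2 they did not overlap in 2, HSPH1 and HSP90AA1, against 12.5%, and 3 members had an unadjusted limma p under 0.05 (HSPH1, HSP90AA1 and HSPB1), against 13.0%. The smallest adjusted p of a member was then 0.264.

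On the deposited scaling the direction of the difference went with the base composition of the transcript. The 4 genes with a higher mean had 58.7 to 64.7% GC in their longest transcript, and the 6 with a lower mean had 39.95 to 56.9%. HSF1, with the most GC, was below 0 on the TPM scale and with quantile normalization. With the dependence on gene length and GC content taken out of each library, an alternative chosen after seeing the data, HSPB1 was at 0.08, HSPA1A at 0.05, HSPA1B at 0.02, HSPH1 at -0.03, HSPA8 at -0.05 and HSP90AA1 at -0.07, all nearer 0 than before. DNAJB1 at -0.064 and HSP90AB1 at -0.032 were farther from 0, and the median of the 10 was -0.03. BAG3, at -0.10, was then the 1 member with an unadjusted limma p under 0.05 (0.0142, adjusted p = 0.294). The part of base composition in the differences was not tested beyond this setting.

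Ratios within a library do not depend on how libraries are scaled to each other. The ratio of HSPA1A plus HSPA1B to HSPA8, inducible over constitutive HSP70, was 0.249, 0.224, 0.234 and 0.222 in siCtrl and 0.2596, 0.279, 0.252 and 0.264 in siPRMT7 libraries. All 4 siPRMT7 libraries were above all 4 siCtrl libraries, and the mean was 13.4% higher, or 11.2% without siPRMT7 replicate 2. The ratio of HSPB1 to HSPA8, added after its values were seen, was 0.658 ± 0.0451 in siCtrl and 0.788 ± 0.0727 in the siPRMT7 group (SD, n = 4 each), also without overlap. For 12.0% of all genes tested the ratio to HSPA8 did not overlap between the groups. HSP90AA1 to HSP90AB1 was 0.585, 0.605, 0.604 and 0.636 in siCtrl and 0.587, 0.581, 0.565 and 0.564 in siPRMT7 libraries, and the groups overlapped. HSPA1A to HSPA1B, also added later, was 1.85 ± 0.0467 and 1.91 ± 0.0987 (SD, n = 4 each). HSPA8 has 46.98% GC and HSPB1 64.3%, so the first 2 ratios also join genes of unlike composition. The 10 genes together took 0.732 ± 0.00866% of all fragments in siCtrl and 0.711 ± 0.02895% in the siPRMT7 group (SD, n = 4 each). The siPRMT7 replicates 1, 3 and 4, at 0.689 to 0.709%, were below every siCtrl library (0.724 to 0.742%), and replicate 2, at 0.753%, was above them. Without replicate 2 the siPRMT7 mean was 0.697%.

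**Figure D3:**
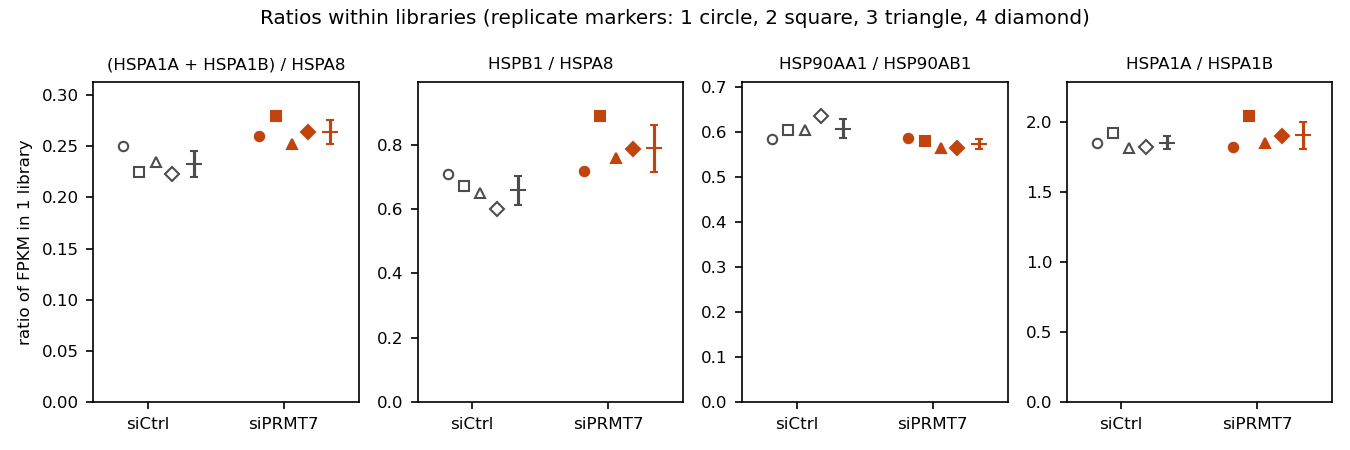
FPKM ratios of pairs of heat shock genes within each library, with siCtrl in open grey and siPRMT7 in filled orange markers, replicate by shape, and mean with SD (n = 4) beside each group. Inducible to constitutive HSP70 and HSPB1 to HSPA8 do not overlap between the groups, with siPRMT7 higher, and the other 2 ratios overlap.

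The wider chaperone network was described by 10 lists of 95 genes, of which 83 were tested. In limma 0 of the 83 passed, 51 were higher and 32 lower, and the median log2 fold change was 0.04. At an unadjusted p under 0.05 there were 13 of the 83, near the 13.2% of all genes. Among the relatives of HSP70 and HSP110, 5 of 6 tested were lower. HSPA4L, an HSP110 relative, had 1.74, 1.71, 1.66 and 1.66 FPKM in the siCtrl group and 1.33, 1.43, 1.35 and 1.28 FPKM in the siPRMT7 group, without overlap (log2 fold change -0.20, limma adjusted p = 0.286). HSPA13, a microsomal HSP70 relative, had 16.7 ± 1.095 and 15.5 ± 0.877 FPKM (SD, n = 4 each). HSPA6, a strictly inducible HSP70 picked out once its values were known, had a mean of 3.66 FPKM in the siCtrl group and 4.18 FPKM in the siPRMT7 group (log2 fold change 0.13, limma adjusted p = 0.675, or 0.028 as log2 fold change without siPRMT7 replicate 2).

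Among J-domain co-chaperones 6 of 11 tested were higher. DNAJB2, a neuronal J-domain protein that sends clients to the proteasome, had 19.1, 18.3, 19.7 and 19.4 FPKM in the siCtrl group and 20.1, 23.4, 21.7 and 22.96 FPKM in the siPRMT7 group, without overlap. Its log2 fold change was 0.19 and its limma adjusted p 0.222, the smallest of the 83. DNAJB5 had 2.04 ± 0.1504 and 1.68 ± 0.1298 FPKM, also without overlap (SD, n = 4 each, log2 fold change -0.18). Of 10 exchange and handover factors 5 were higher. BAG1, an exchange factor that links HSP70 to the proteasome, had 10.5 ± 0.2195 and 11.5 ± 0.451 FPKM (SD, n = 4 each), without overlap. STUB1, the ubiquitin ligase CHIP that marks chaperone clients for degradation, had 18.7 ± 0.867 and 22.1 ± 2.85 FPKM (SD, n = 4 each). Of 12 HSP90 co-chaperones 8 were higher. FKBP8 had 103 ± 3.98 and 116 ± 10.8 FPKM, and CDC37, which brings kinases to HSP90, had 99.5 ± 4.24 and 106 ± 5.58 FPKM. With quantile normalization CDC37 was at -0.0091 on the log2 scale.

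Of the other genes listed as small heat shock proteins 1 of 9 was tested, HSPB11, which is listed by its symbol and had 5.500 ± 0.418 and 6.07 ± 0.474 FPKM. CRYAB, the best known relative of HSPB1, had 5 to 10 fragments per library, and CRYAA, HSPB2, HSPB3 and HSPB9 had 0 in each. HSPB1 was thus the 1 small heat shock gene above 10 FPKM. In the HSF family list 1 of 4 tested was higher, HSBP1, a protein that binds HSF1 trimers, with 11.7 ± 0.601 and 13.1 ± 1.22 FPKM, while HSF2BP had 1.38 ± 0.124 and 1.19 ± 0.324 FPKM. Of 8 CCT chaperonin subunits 5 were higher (median 0.03), with CCT3 at 84.7 ± 1.75 and 81.05 ± 6.95 FPKM and CCT2 at 55.96 ± 1.48 and 54.1 ± 3.46 FPKM. The CCT median was below 0 without siPRMT7 replicate 2 (-0.035), with quantile normalization (-0.034), on the TPM scale (-0.011) and with library weights (-0.011). All 6 prefoldin subunits, which deliver actin and tubulin to CCT, had a higher mean (median 0.13), led by PFDN2 with 123 ± 11.8 and 154 ± 23.8 FPKM and PFDN6 with 7.79 ± 0.516 and 9.205 ± 1.42 FPKM (SD, n = 4 each throughout). Without siPRMT7 replicate 2 the prefoldin median was 0.057, and VBP1 was below 0 there (-0.077), on the TPM scale (-0.011), with quantile normalization (-0.011), with library weights (-0.04) and with the trend on length and GC removed (-0.0024).

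Mitochondrial chaperones were higher in 5 of 9. CLPB, a mitochondrial disaggregase, had 4.46 ± 0.134 and 3.99 ± 0.3504 FPKM, without overlap, and GRPEL1, the exchange factor of mitochondrial HSP70, had 15.7 ± 0.882 and 17.4 ± 1.53 FPKM (SD, n = 4 each). The list genes named here as without overlap were picked by smallest p, which favours separation. Over all genes tested 8.57% did not overlap. ER chaperones were higher in 13 of 16, with a median of 0.052, which was 0.022 without siPRMT7 replicate 2, 0.012 on the TPM scale and 0.014 with quantile normalization. SDF2L1 had 28.8, 27.7, 31.4 and 32.1 FPKM in the siCtrl group and 31.3, 44.2, 36.7 and 35.3 FPKM in the siPRMT7 group, and MANF, a protein induced by ER stress, had 21.4 ± 1.21 and 26.1 ± 3.83 FPKM. Their log2 fold changes were 0.28 and 0.27 (limma adjusted p = 0.291 each), and siPRMT7 replicate 2 was the highest library of both (31.4 FPKM for MANF).

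**Figure D4:**
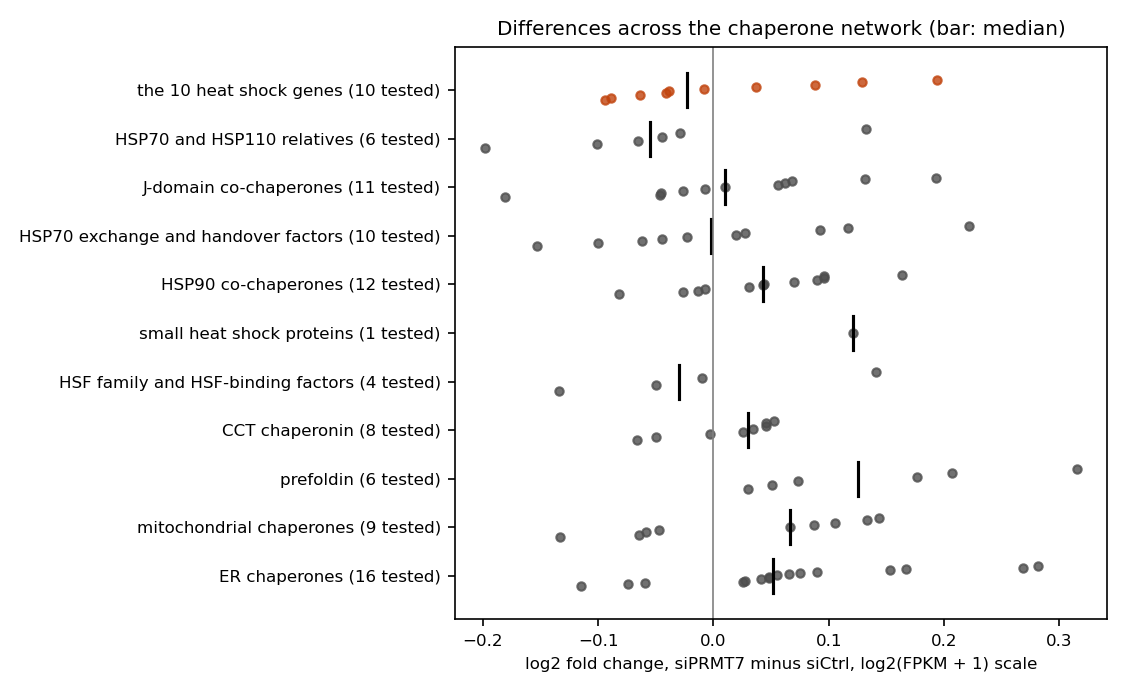
Log2 fold changes, siPRMT7 minus siCtrl on the log2(FPKM + 1) scale, of the 10 heat shock genes (orange) and the tested genes of 10 chaperone lists (grey), 1 point per gene, with the list median as a black bar. The 10 genes spread from -0.09 to 0.19 around a median of -0.02, and the prefoldin list has a median of 0.13.

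The pattern over libraries most like the mean standardized level of the 7 stress-inducible members (HSPA1A, HSPA1B, DNAJB1, HSPH1, HSP90AA1, BAG3 and HSPB1) was sought among 7111 protein-coding genes. That mean was highest in siPRMT7 replicate 2 (0.869) and lowest in siPRMT7 replicate 1 (-0.885). The 6 closest genes were UBL4A, a ubiquitin-like partner of the chaperone BAG6, CLGN, an ER chaperone, SNRNP40, a splicing factor, RCAN1, an inhibitor of calcineurin, CAPNS1, the small calpain subunit, and MRPS18B, a mitochondrial ribosomal protein. Their Pearson correlations were 0.96 to 0.98 over the 8 libraries and 0.93 to 0.97 over 7 without siPRMT7 replicate 2. The 6 were picked as the highest of 7111 over these libraries, and the 7 libraries are part of the 8. High values are thus in part a result of the choice, and libraries share depth and composition across genes. The 7 members themselves correlated with that mean at only 0.359 (HSPA1B) to 0.840 (DNAJB1), so the mean is not a pattern they all share. Of the heat shock genes that were not part of the mean, HSP90AB1 had 0.949, HSPA8 had 0.546 and HSF1 had 0.192.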

How the data were processed

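RNA of 8 PC3 libraries was sequenced, 4 titled siCtrl and 4 titled siPRMT7, and groups were taken from the titles. The deposited table holds FPKM values that the authors computed. Per the submitters' processing notes, cutadapt 2.5, HISAT2 2.1.0 and featureCounts 1.6.3 were used. The notes name a mouse build, but the start, end and strand of all 58735 genes match GENCODE release 29 on GRCh38. FPKM times gene length was a whole multiple of 1 step per library for 100% of values above 0 (tolerance 0.01 fragments), which gave fragment counts. Per the file's values, libraries had already been scaled to each other by median ratios.

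Genes reaching 1 FPKM in 4 or more libraries were tested as log2(FPKM + 1), a scale that understates changes of low genes, with limma 3.58.1 in R 4.3.3 (variance trend, two-sided, Benjamini-Hochberg over all genes tested, threshold 0.05). In simulated libraries this test recovered 9.09% of 1.2-fold and 79.4% of 1.5-fold changes, of 66 and 63 such genes among 13506 tested. It also called 6 unchanged genes there. The simulation gave every gene the same spread beyond counting and held no deviating library such as siPRMT7 replicate 2. These shares are thus not the recovery in the real libraries. The members and the lists were chosen with earlier results of these data known. Named genes were PRMT7, all members, from each list the 2 genes with the smallest p, and the 6 genes closest in pattern. Alternatives were other pseudocounts, filters, scalings, models, a replicate block and leaving out each library. Counting errors cover sampling of fragments only. Protein sequences were not used here, and the promoter of HSF1 was not analysed here.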

Additional observations from a re-analysis of the deposited data

Results flagged for a closer look

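HSPH1 in siPRMT7 replicate 2 stood apart from its group, at 44.6 FPKM against 41.5 to 42.1 FPKM in the other 3 siPRMT7 libraries. It was the 1 value past Dixon's 95% criterion for 4 samples among 34 groups of 4 values checked, where chance alone passes about 1 in 20. The same library was the highest of its group for HSPA1A, HSPA1B, HSPB1, HSP90AA1, HSP90AB1 and DNAJB1, none of which passed that criterion. Its ribosomal protein share of fragments, 3.94%, was also the highest of the 8 libraries, and the part of that share in the values was not tested.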

How the results depend on the processing

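Over 18 alternatives for each of the 10 genes, 0 passed an adjusted p of 0.05 in limma or voom, and the smallest adjusted p was 0.13 (HSPB1). In all 18 the log2 fold changes of HSPA1A, HSPA1B and HSPB1 stayed above 0 and those of HSPA8, HSPH1, HSP90AA1, DNAJB1 and BAG3 below 0, with ranges of 0.052 to 0.15 for HSPA1A, 0.018 to 0.11 for HSPA1B, 0.079 to 0.25 for HSPB1, -0.13 to -0.05 for HSPA8, -0.14 to -0.03 for HSPH1, -0.17 to -0.06 for HSP90AA1, -0.12 to -0.0027 for DNAJB1 and -0.096 to -0.023 for BAG3. HSF1 turned to -0.0032 on the TPM scale, -0.0097 with quantile normalization and -0.017 after removal of the trend on length and GC, and HSP90AB1 turned to 0.0092 without siPRMT7 replicate 1 and 0.0051 without siPRMT7 replicate 4 (-0.041 without siPRMT7 replicate 2), and the cause was not tested. The median of the members was -0.065 on the TPM scale, which lowers the median of all genes tested to -0.04, and ran from -0.04 to 0.0032 without 1 library, the latter without siPRMT7 replicate 1. Of the chaperone lists 0 genes passed in any setting.

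Over all genes, 2 were called higher and 0 lower. The number higher was 1 with pseudocount 0.1, FPKM of at least 5 or quantile normalization, 12 with voom, 46 with library weights, 8 after removal of the trend on length and GC, and 11 with protein-coding genes alone. The number lower was 2 with no filter, 1 with voom and 12 with library weights. Without 1 library, 0 to 2 were higher (2 without siPRMT7 replicate 2, 1 without replicate 4 of that group, and 0 for each of the other 6 libraries) and 0 to 1 lower (1 without siPRMT7 replicate 4). PRMT7 was 10.7% lower on the TPM scale (-10.7%, exact permutation p = 0.0286). With the replicate number as a block 0 genes and 0 members were called. Same-numbered libraries correlated at -0.03 to 0.06 in their deviations from the group means, and 2 of 8 libraries correlated best with their own number. These values show no sign of pairing by number. With so few libraries they cannot exclude it, and the labels do not state it. The spread between siCtrl libraries was below counting error for BAG3 (0.547% against at least 2.09%) and HSF1 (1.57% against at least 1.89%). Between siPRMT7 libraries it was below counting error for HSPA1B (2.38% against at least 3.16%) and HSF1 (1.01% against at least 1.89%). Depth thus limits what these genes can show.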
